A study of Homo sapiens and Mus musculus with 30 samples.

Results

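The RNF genes encode proteins named for the RING finger, and they were followed across graded amounts of LIN28B in a human and a mouse cell line. Members were the genes whose symbol is RNF, a number and at most 1 further letter, and whose total RNA averaged at least 1 RPKM (a read count scaled to gene length and to library size). In HEK293A, a human embryonic kidney line, 61 of 11342 listed genes were members. In NIH3T3, a mouse embryonic fibroblast line, 49 of 41128 were, out of 79 listed RNF symbols. Together these were 62 distinct symbols, of which 48 were members in both lines. RNF208 was singled out because its polysome RNA fell in HEK293A, so its values in that line are given as a description and without a test.

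A RING finger is a zinc-binding fold that brings a ubiquitin-loaded E2 enzyme next to a substrate, so that ubiquitin passes to the substrate without being bound to the ligase. RING-between-RING ligases differ in that they take ubiquitin onto a cysteine of their own before passing it on. Members of the family sit on chromatin, at DNA breaks, in the cytosol and in the membranes of the endoplasmic reticulum, endosomes and cell surface. LIN28B binds RNA, keeps precursors of let-7 microRNAs from being processed, and also contacts many messenger RNAs.

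Both lines were set at 5 LIN28B levels, X0 to X4, and each level gave 1 library of total RNA and 1 of polysome RNA, the RNA bound by ribosomes. In HEK293A, X0 is the LIN28B knockout and X1 to X4 carry rising LIN28B, while the NIH3T3 labels name no knockout. The labels give DMEM with 10% FBS as the medium and doxycycline at 10 ng/ml as the inducer of a LIN28B transgene, and whether X0 cells received doxycycline is not stated. A further pair of libraries, total and polysome, came from HEK293A X0 cells transfected with let-7a at 10 nM. The series design speaks of replicates, but each level and fraction had 1 column, so every p-value measures only the spread of the 5 levels about a line. The HEK293A, NIH3T3 and let-7a tables were normalized separately.

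Reads recovered from the RPKM values came to between 37.7 and 56.0 M (1e6 reads) in the HEK293A total RNA libraries and between 9.09 and 14.6 M in the polysome libraries. The NIH3T3 libraries held 15.9 to 25.0 M. LIN28B total RNA in HEK293A was 3.60, 23.0, 33.4, 81.2 and 208 RPKM from X0 to X4, in the labelled order. In NIH3T3 the mouse gene Lin28b had 1 read in each total RNA library from X0 to X2, then 9 and 42 reads at X3 and X4, so that table gives little check of the levels there. The HEK293A table listed 4 of 7 markers of that line (KRT8, KRT18, CDH2 and NEFL), and not EPCAM, NEFM or INA. Of 8 fibroblast markers it listed 3, VIM at 104 to 171 RPKM, S100A4 at 3.68 to 4.8 and FN1 at 1.11 to 1.65, and not the other 5. All 8 fibroblast markers were at 1 RPKM or more in NIH3T3, as was CD68, a macrophage marker, at 5.06 to 11.1 RPKM, while PTPRC, CD3E, PECAM1 and CDH5 were below 1 RPKM.

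The stretches of 100 bases just before the annotated start are shown for RNF208 and RNF40, the members with the steepest fall in ribosome occupancy in HEK293A, and for RNF2 and RNF141, which are among the steepest rises. They come from RefSeq on GRCh38.p14, run 5′ to 3′ on the strand of the gene, and carry CG dinucleotides in capitals. RNF208 lies on the minus strand (chr9:137223409-137223508), RNF40 on the plus strand (chr16:30761512-30761611), RNF2 on the plus strand (chr1:185045458-185045557) and RNF141 on the minus strand (chr11:10541188-10541287).
RNF208: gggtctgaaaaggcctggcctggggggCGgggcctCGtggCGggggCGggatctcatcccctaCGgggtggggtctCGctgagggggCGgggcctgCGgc
RNF40: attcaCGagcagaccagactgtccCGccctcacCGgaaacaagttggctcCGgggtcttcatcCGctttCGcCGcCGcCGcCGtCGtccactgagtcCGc
RNF2: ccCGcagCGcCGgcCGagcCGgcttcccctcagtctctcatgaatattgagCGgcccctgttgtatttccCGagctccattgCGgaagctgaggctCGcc
RNF141: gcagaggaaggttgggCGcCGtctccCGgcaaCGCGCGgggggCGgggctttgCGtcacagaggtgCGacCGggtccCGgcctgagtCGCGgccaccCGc
The RNF208 stretch holds 8 CG dinucleotides at 77.0% G or C, RNF40 holds 12 at 65.0%, RNF2 holds 9 at 64.0% and RNF141 holds 14 at 76.0%. Their CG content did not sort the falling pair from the rising pair.

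RNF208 kept its total RNA while its polysome RNA went down. Total RNA of RNF208 was 15.3, 17.0, 16.9, 18.5 and 13.5 RPKM from X0 to X4. Its polysome RNA was 16.8, 10.9, 10.1, 4.88 and 3.43 RPKM in the same order. The total values lay close together with no trend from level to level, whereas each polysome value was lower than the one before it and X0 stood above all others. Polysome RNA at X4 was 4.92-fold below X0, and the values rested on 238, 154, 106, 82 and 43 polysome reads. Ribosome occupancy, taken as log2(polysome RPKM + 0.5) minus log2(total RPKM + 0.5), was 0.13, -0.62, -0.71, -1.82 and -1.84 from X0 to X4, so most of the loss came in 2 steps, between X0 and X1 and between X2 and X3. The fitted slope of occupancy was -0.51 per level (SE 0.07). It was the lowest of the 61 members, and only 3 of the 11125 genes fitted had a lower one. RNA was pooled from many cells, so a change in some cells and a smaller change in all of them cannot be told apart. The strand setting of the counting is not given. Of the genes near RNF208 in RefSeq order, NDOR1 is also listed in the HEK293A table. LOC122513141, which comes between NDOR1 and RNF208, and CYSRT1, on the other side of RNF208, are not listed there.

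RNF208 did not begin as an unusual member. At X0 its polysome to total ratio of 1.09 ranked 44 from the lowest among 61 members, and at X4 its ratio of 0.280 ranked 7. RNF169 (0.276), RNF11 (0.317) and RNF213 (0.345) had the lowest ratios at X0, and RNF213 and RNF169 were also the lowest at X4 (0.217 and 0.241). The members whose changes from X0 came nearest to those of RNF208, by Euclidean distance over the 4 changes in log2 occupancy, were RNF166 (distance 0.81), RNF126 (0.84), RNF40 (1.14), RNF123 (1.34) and RNF44 (1.40). RNF166 and RNF126 shared the course with its 2 steps: RNF166 changed by -0.69, -0.54, -1.38 and -1.49 at X1 to X4, and RNF126 by -0.78, -0.45, -1.50 and -1.37.

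**Figure D1:**
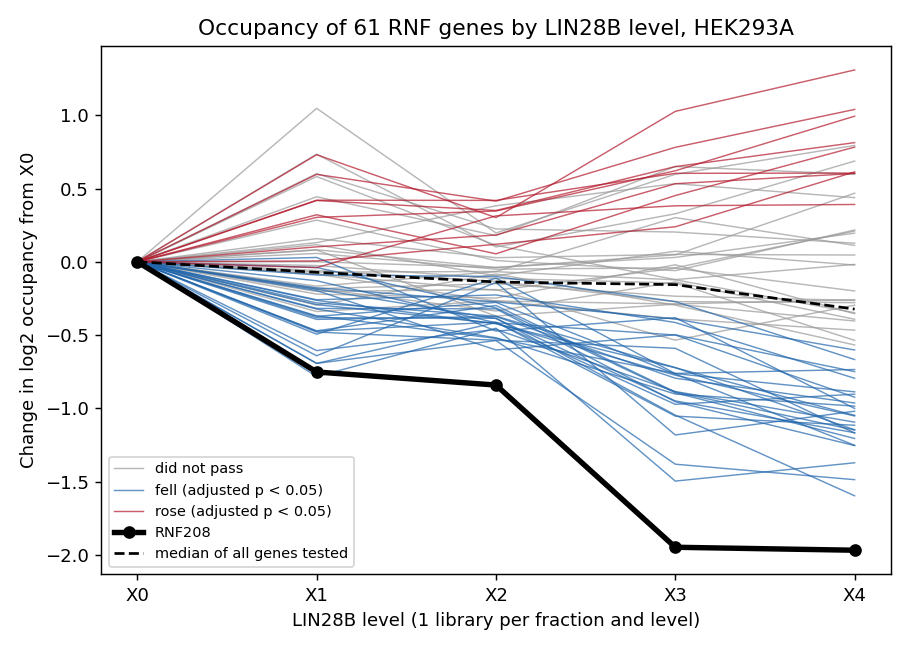
Change in log2 ribosome occupancy from X0 at each LIN28B level in HEK293A, 1 line per RNF gene, with blue for genes that fell, red for genes that rose and grey for genes that did not pass the test. RNF208 (black) ends at -1.97, below every other member, and the dashed median of all genes tested ends at -0.32.

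Across the family in HEK293A, RNF208 left out, occupancy of 26 of 60 members fell along the levels and 9 rose (limma over all genes, Benjamini-Hochberg adjusted p under 0.05). Among all 11125 genes tested 58.1% were called, 39.0% downward and 19.1% upward. The members' share called downward, 43.3%, was near that of all genes, with 9 of 60 called upward, and their median slope was -0.10 per level against -0.07 for all genes. The median gene had itself lost 0.32 of log2 occupancy between X0 and X4. With each library centred, 18 members were called down and 12 up (30.0% and 20.0%), while all genes turned to 24.6% down and 29.6% up. Quantile normalization gave 19 down and 12 up against 26.6% and 26.2% of all genes, and the count test 21 down and 13 up against 28.8% and 29.6%. No difference in these shares was tested. The calls rested on the end levels: without X0, 7 members passed, all falling (11.7%, against 13.6% of all genes falling). Without X4 none did by limma, where 0.0% of all genes passed. In that fit 25 members had an unadjusted p under 0.05, a count not made over all genes. The slopes of the 35 called members kept their sign under all alternatives in which they were tested, whereas 10 members that did not pass changed sign on centring.

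**Figure D2:**
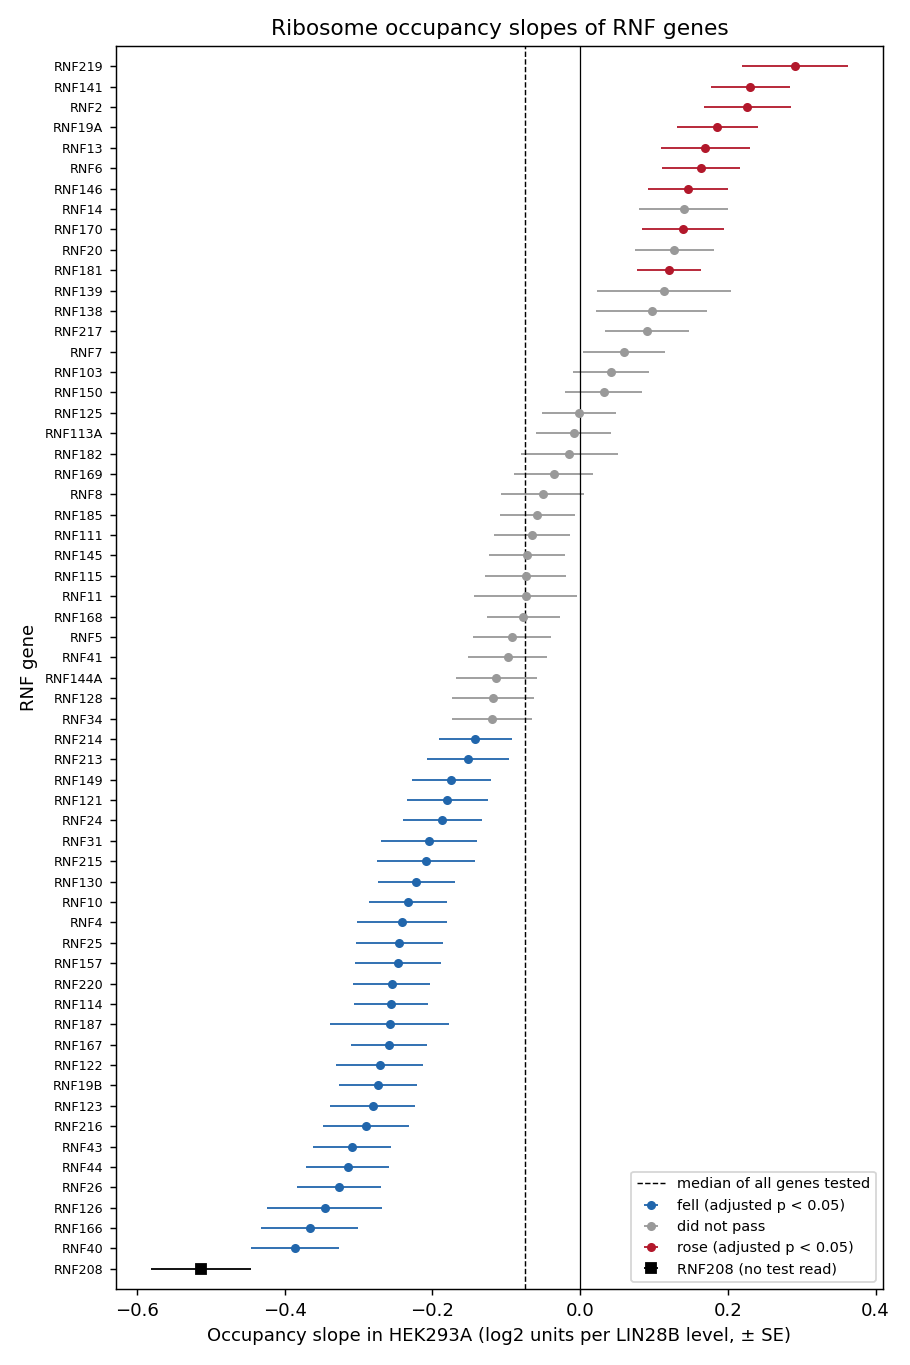
Occupancy slope of the RNF genes reported by name in HEK293A in log2 units per LIN28B level, with the standard error of the fit as bars, genes in order of slope, blue for fell, red for rose, grey for not passed and a black square for RNF208, which has no test. Slopes run from -0.51 for RNF208 to 0.29 for RNF219, and the dashed line marks the median of all genes tested at -0.07.

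The members on chromatin and at DNA breaks included the steepest tested fall and one of the steepest rises. RNF40, which pairs with RNF20 to ubiquitinate histone H2B, had 38.4, 28.4, 28.8, 19.0 and 11.4 RPKM of polysome RNA from X0 to X4, and 48.9, 47.3, 48.1, 50.6 and 45.2 RPKM of total RNA. Its polysome RNA at X3 and X4 lay below X0 to X2, and its total RNA moved little. Its occupancy fell by 0.39 per level (SE 0.06, limma adjusted p = 0.0032). RNF2, the catalytic subunit that ubiquitinates histone H2A in Polycomb complexes, had 13.5, 22.8, 19.4, 26.3 and 35.0 RPKM of polysome RNA with 13.8, 15.3, 14.8, 15.5 and 17.2 RPKM of total RNA. X0 was the lowest in both fractions, and the polysome spread was the wider. RNF2 occupancy rose by 0.23 per level (SE 0.06, limma adjusted p = 0.0089). RNF4, a ligase directed to SUMO-modified proteins, fell by 0.24 per level (SE 0.06, limma adjusted p = 0.0082). The other 6 of these 9 members did not pass, so 22.2% of the group fell and 11.1% rose, against 39.0% and 19.1% of all genes. Among those 6, RNF8 and RNF168, which act in turn at DNA breaks, had slopes of -0.05 and -0.08, close to the median of all genes.

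The RNF20 to RNF40 pair drew apart. RNF20 polysome RNA was 16.3, 16.6, 21.1, 23.0 and 24.5 RPKM, and its total RNA was 18.0, 16.7, 17.8, 17.4 and 19.9 RPKM. RNF20 occupancy had a slope of 0.13 (SE 0.05, limma adjusted p = 0.063), short of the threshold, and it passed upward once libraries were centred (adjusted p = 0.011), after quantile normalization (0.022) and in edgeR's quasi-likelihood test (0.0049). RNF20 occupancy stood 0.20 above that of RNF40 at X0 and then 0.72, 0.97, 1.78 and 2.24 above it at X1 to X4, on the log2 scale. The gap widened at each step. This pair and those below were chosen with their values known, so the gaps are given without a test.

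Other related members also separated. RNF19A and RNF19B, RING-between-RING paralogs, differed in log2 occupancy by -0.33 at X0 and by 1.63 at X4, with RNF19A the higher at X4. RNF19A polysome RNA was 3.62, 4.94, 4.42, 5.45 and 7.16 RPKM, while that of RNF19B was 8.42, 7.27, 7.12, 5.58 and 4.39 RPKM. The paralogs thus changed order in the polysome fraction between X3 and X4. RNF13 and RNF167, membrane ligases with a protease-associated domain, differed by -0.62 at X0 and 1.21 at X4. RNF5 and RNF185, which act in degradation at the endoplasmic reticulum, kept their distance, with 0.80 at X0 and 0.77 at X4, as did RNF168 and RNF169 (1.03 and 0.95). Related members thus showed both parallel and opposite courses.

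**Figure D3:**
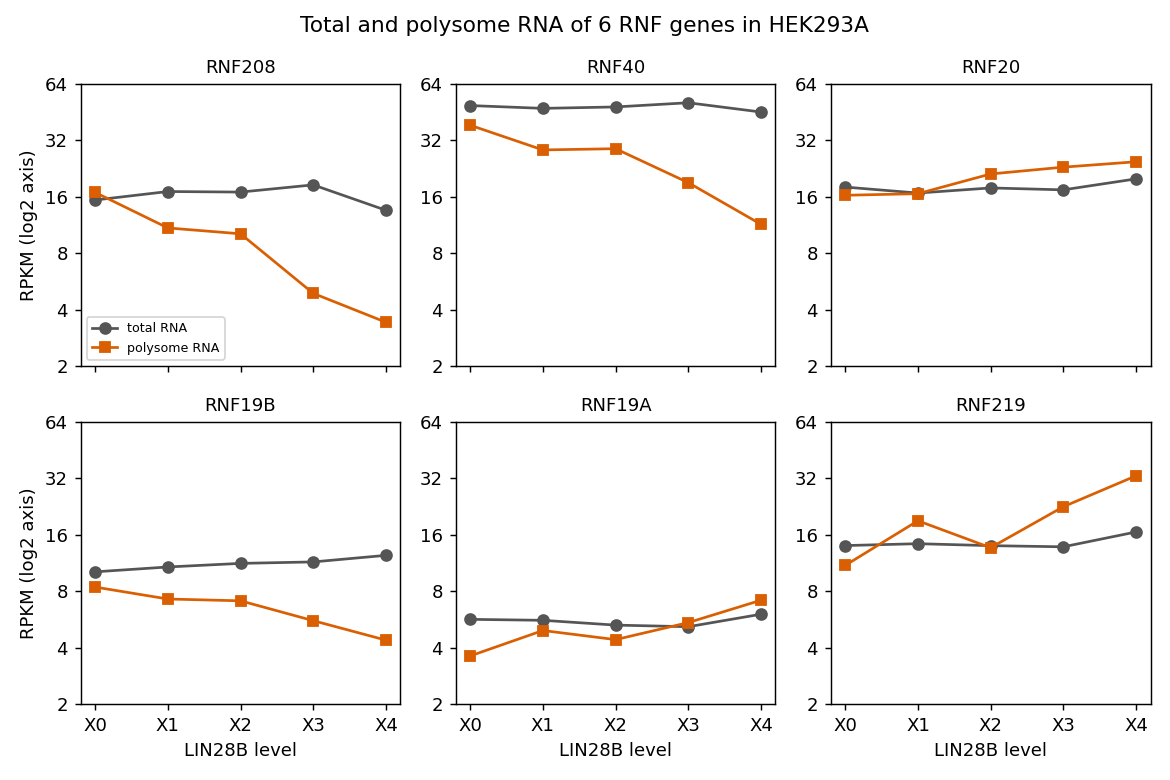
Total RNA (grey circles) and polysome RNA (orange squares) of 6 RNF genes in HEK293A by LIN28B level, in RPKM on a log2 axis, with 1 library per point. Polysome RNA of RNF208, RNF40 and RNF19B is lower at X4 than at X0 (3.43 against 16.8 RPKM for RNF208), that of RNF20, RNF19A and RNF219 is higher (33.0 against 11.0 RPKM for RNF219), and total RNA lies nearly flat.

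Of the 7 RING-between-RING members 3 fell (42.9%), 1 rose (14.3%) and 3 did not pass, with a median slope of -0.11. The shares of all genes were 39.0% and 19.1%. RNF216 fell by 0.29 (SE 0.06, limma adjusted p = 0.0039), but its near-identical copy RNF216P1 had 5.73 RPKM of total RNA in the let-7a library, so its reads may be divided between them. RNF19B fell by 0.27 (SE 0.05, limma adjusted p = 0.0035) and RNF31, the catalytic subunit of the complex that builds linear ubiquitin chains, by 0.20 (SE 0.06, limma adjusted p = 0.021). RNF31 did not pass after centring (limma adjusted p = 0.11). RNF19A rose by 0.19 per level (SE 0.05, limma adjusted p = 0.015).

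The membrane-anchored members were the largest group. Among them 9 of 19 fell while 2 rose (median slope -0.12), where 39.0% of all genes fell and 19.1% rose. RNF26, a ligase of the endoplasmic reticulum, had 32.8, 29.0, 24.2, 18.0 and 12.3 RPKM of polysome RNA, a drop at every level, with total RNA between 34.3 and 40.1 RPKM. It fell by 0.33 in occupancy (SE 0.06, limma adjusted p = 0.0032). RNF43, which removes Wnt receptors from the cell surface, fell by 0.31 (SE 0.05, limma adjusted p = 0.0032). Its polysome RNA dropped from 4.68 RPKM at X0 through 3.63, 2.998 and 1.79 to 1.25 RPKM at X4. RNF122 and RNF167 fell by 0.27 and 0.26. RNF13, found in the endoplasmic reticulum and endosomes, rose by 0.17 (SE 0.06, limma adjusted p = 0.033). RNF170, which acts on inositol trisphosphate receptors, rose by 0.14 (SE 0.06) with a limma adjusted p of 0.0499, at the edge of the threshold.

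Among 13 cytosolic members of signalling and quality control 5 fell (38.5%) and 2 rose (15.4%), against 39.0% and 19.1% of all genes. Their median slope was -0.10. RNF166 had 13.2, 8.35, 9.72, 5.51 and 4.20 RPKM of polysome RNA and 7.73, 8.08, 8.40, 8.89 and 7.41 RPKM of total RNA. RNF126, which works with BAG6 on misplaced membrane proteins, had 31.4, 19.8, 25.3, 14.1 and 10.7 RPKM of polysome RNA and 24.3, 26.6, 26.9, 31.5 and 22.1 RPKM of total RNA. In both, X0 was the highest polysome library and X2 stood above X1. Occupancy of RNF166 fell by 0.37 (SE 0.07, limma adjusted p = 0.0033) and that of RNF126 by 0.35 (SE 0.08, limma adjusted p = 0.0053). RNF123, part of a complex that degrades the cell cycle inhibitor p27, fell by 0.28, and RNF114 by 0.26. The risers were RNF146, which recognises poly(ADP-ribose), at 0.15 (limma adjusted p = 0.038) and RNF181 at 0.12 (limma adjusted p = 0.034). RNF181 also had the highest polysome to total ratio of the family at X0, 3.02.

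Of the remaining 12 members, RNF208 left out, 7 fell and 3 rose (median slope -0.15), where 39.0% of all genes fell and 19.1% rose. No difference between any of these groups and all genes was tested. RNF44 fell by 0.31 (SE 0.06, limma adjusted p = 0.0032). RNF219, a ligase that acts at replication origins, had 11.0, 19.0, 13.7, 22.6 and 33.0 RPKM of polysome RNA with 14.0, 14.3, 14.0, 13.8 and 16.6 RPKM of total RNA. Its X2 library lay between X0 and X1 and the highest values were at X3 and X4. RNF219 rose by 0.29 per level (SE 0.07, limma adjusted p = 0.0073), the steepest rise in the family. RNF141 rose by 0.23 (SE 0.05, limma adjusted p = 0.0058), with polysome RNA of 3.62, 4.38, 4.61, 5.50 and 8.05 RPKM, and RNF6 by 0.16 (SE 0.05, limma adjusted p = 0.022).

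The libraries of the called members, RNF208 left out, fell into an order that their slopes largely fix. In 24 of the 26 falling members both X3 and X4 were below all of X0 to X2, and in all 9 rising members both were above. Among the 25 members that did not pass, 7 had X3 and X4 below X0 to X2 and 4 had them above. For all genes the same held in 4052 of the 4341 that fell and 1960 of the 2124 that rose. Of the 4660 genes not called, 695 had X3 and X4 below X0 to X2 and 954 had them above.

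Polysome RNA alone gave nearly the same picture as occupancy, as total RNA varied little. With RNF208 left out, polysome slopes fell in 25 of 60 members and rose in 10 (limma, where 58.9% of all genes were called, 38.6% downward and 20.3% upward). Of the 35 members called for each measure 34 were shared, with RNF149 called for occupancy and RNF20 for polysome RNA. Centring made the polysome split 18 down and 14 up, against 27.3% and 28.4% of all genes, and quantile normalization 17 and 14, against 27.3% and 27.1%. The steepest polysome slope after RNF208 (-0.54) was that of RNF43 (-0.40, SE 0.05, limma adjusted p = 0.0032). Leaving out X0 or X4 ended all of the polysome calls by limma, over all genes as well. In those fits 25 and 24 members had an unadjusted p under 0.05, counts not made over all genes.

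With RNF208 left out, total RNA slopes passed in 0 of 60 members by limma, where 2.24% of all genes passed, 1.48% upward and 0.758% downward. Of these members 12 had an unadjusted p under 0.05, a count not made over all genes. The lowest p belonged to RNF170, with 2.50, 2.69, 3.01, 3.01 and 3.84 RPKM from X0 to X4 and a slope of 0.12 (SE 0.03, limma adjusted p = 0.067). RNF43 had a slope of -0.09 (limma adjusted p = 0.091) and RNF150, a membrane-anchored member, one of -0.09 (limma adjusted p = 0.10). The X4 library was the highest for RNF170 and the lowest for RNF43. edgeR's quasi-likelihood test on recovered reads called 1 member, RNF170, upward.

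The rest of the ubiquitin pathway was read from lists chosen by name, against 39.0% of all genes falling and 19.1% rising. Among E1 and E2 enzymes, which activate and carry ubiquitin, 9 of 31 fell (29.0%) and 9 rose (29.0%, median slope 0.05, against -0.07 for all genes). UBA1, the main activating enzyme, fell by 0.36 (SE 0.06, limma adjusted p = 0.0032), and UBE2V2, an E2 variant that works with UBE2N, rose by 0.29 (SE 0.06, limma adjusted p = 0.0038). Among 49 RING ligases of other names and their partners 21 fell (42.9%) and 8 rose (16.3%), shares near those of all genes (median slope -0.11), led by UHRF1, which reads hemimethylated DNA, with a fall of 0.38 (SE 0.06, limma adjusted p = 0.0032). Among 22 HECT ligases, which carry ubiquitin on a cysteine, 7 fell (31.8%) and 1 rose (4.55%, median slope -0.02), and the 4 of lowest p (WWP2, HECTD3, UBE3C and AREL1) all fell, by 0.25 to 0.31. No difference between these lists was tested.

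The promoter stretches were compared over the 250 bases before the RefSeq start, found for 52 of 61 members. The median G or C content was 66.9% in 24 falling members and 59.2% in 22 members that did not pass. The same medians were 67.3% and 64.4% over the falling and not called genes of the whole table, but 72.3% of tested genes had a promoter entry, so that check is void. With 6 of the 9 rising members matched, the check was void for that group. The motif GGGCGG, searched on both strands, was present in 42 of 52 members (80.8%), against 77.1% of the tested genes with an entry and 42.6% of all 35116 promoters in the table. As 72.3% of tested genes had an entry, the comparison of the motif with tested genes is void as well. These are descriptions of the letters in that window.

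In NIH3T3, RNF208 could not be followed. Mouse Rnf208 averaged 0.0117 RPKM of total RNA and was listed at 0 in every polysome library, so it was outside the rule. The members just inside and just outside the threshold of 1 RPKM ran from 1.03 RPKM for the lowest member to 0.945 for Rnf8, 0.906 for Rnf168 and 0.884 for Rnf103. Rnf20 (0.594 RPKM) and Rnf219 (0.311 RPKM) were also outside, so neither the RNF20 to RNF40 gap nor the steepest human rise had a mouse counterpart.

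None of the 49 mouse members passed for occupancy, polysome RNA or total RNA with limma, where 0.0% of all genes passed for each. At an unadjusted p under 0.05 there were 0, 3 and 4 members for the 3 measures by limma, and 6, 7 and 6 in edgeR's quasi-likelihood test, which also called 0 after adjustment. Without X4 the limma count for occupancy was 16 of 49, again with 0 after adjustment. These unadjusted counts were not made over all genes, so they cannot be read as particular to the members. The smallest adjusted p among members by limma was 0.64 for occupancy, 0.45 for polysome RNA (Rnf144a) and 0.37 for total RNA (Rnf11). Rnf40 polysome RNA was 20.8, 16.2, 14.1, 14.6 and 16.7 RPKM from X0 to X4 and its total RNA was 12.5, 11.6, 11.7, 12.5 and 13.6 RPKM. X0 was the highest polysome library, and X4 lay above X2 and X3. Its occupancy slope was -0.11 (SE 0.06). Rnf2 polysome RNA was 7.51, 4.51, 8.68, 10.6 and 7.63 RPKM against total RNA of 2.48, 2.09, 1.25, 1.12 and 1.43 RPKM. Its X1 library was the lowest in the polysome fraction and its X0 library the highest in total RNA. The occupancy slope of Rnf2 was 0.31 (SE 0.20), with Rnf6 at 0.32 (SE 0.16) and Rnf13 at 0.30 (SE 0.23). In these 3 genes occupancy was higher at X2 and X3 than at X4, so the course was not a straight line.

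The slopes of the 48 shared members were set side by side. Pearson's r across genes was 0.60 and Spearman's rho 0.57, with the same sign in 35 of 48, and these describe genes that share the same 20 libraries and are not independent. In 42 of 48 the human slope was below the mouse slope, with a median difference of -0.15 against -0.12 over all shared genes. With libraries centred, the median difference over all shared genes was -0.03. The same counts and correlations were not made over all shared genes, so they cannot be read as particular to the members. The difference itself passed in 0 of 48 members by limma, where 0.0% of all 7257 shared genes passed. An unadjusted p under 0.05 was found in 20 members, a count not made over all shared genes. The lowest adjusted p by limma was 0.052, for RNF216 (-0.37, SE 0.08), RNF26 (-0.35, SE 0.08) and RNF44 (-0.31, SE 0.08). With a pseudocount of 1 in place of 0.5, 6 members passed (12.5%, against 8.17% of all genes), and without X2 in both lines 9 did (18.8%, against 13.0%), each with the lower slope in HEK293A. The calls of a difference between the lines thus depended on these choices.

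**Figure D4:**
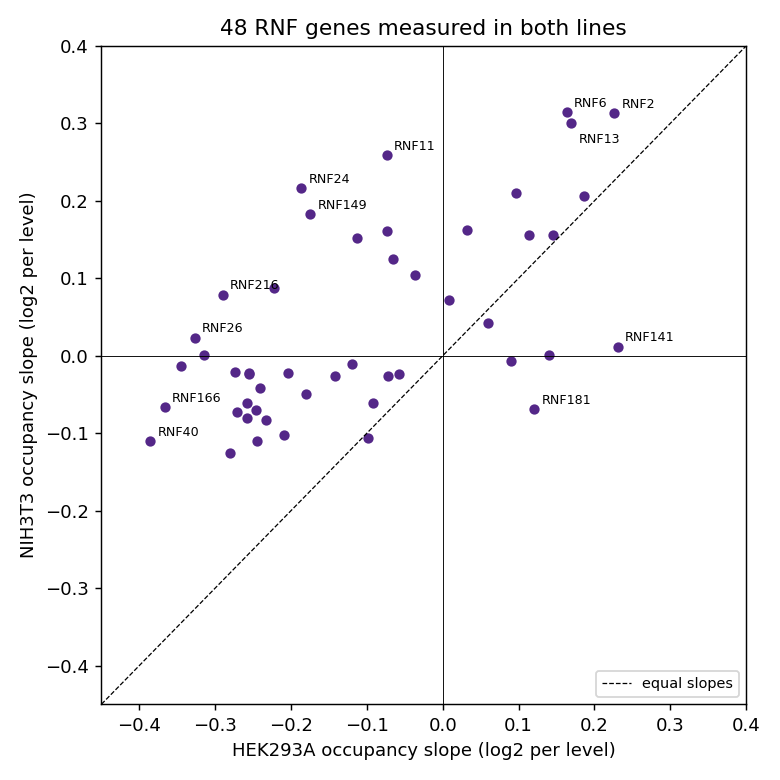
Occupancy slope in HEK293A (horizontal) against NIH3T3 (vertical), both in log2 units per LIN28B level, for the 48 RNF genes measured in both lines. In 42 of the 48 the point lies above the dashed line of equal slopes, and RNF40 is at -0.39 in HEK293A and -0.11 in NIH3T3.

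Transfection of let-7a into HEK293A X0 cells, was measured with 1 library per fraction, so its differences carry no test. The microRNA is shown with its seed, bases 2 to 8, in capitals, since that stretch pairs with target messenger RNAs (RefSeq, GRCh38.p14).
let-7a-5p: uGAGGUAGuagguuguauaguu
Small RNA was sequenced separately, as total and as AGO2-bound RNA, from knockout and from X3 cells. Reads on let-7a features numbered 4 in total and 5 in AGO2-bound RNA of transfected knockout cells, 1 and 3 in those of transfected X3 cells, and 0 in each of the 4 untransfected libraries. The transfected libraries held from 73083 to 140139 counts, so these few reads are a weak check of the transfection. HMGA2, a known let-7 target, went from 5.87 RPKM at X0 to 0.737 RPKM in total RNA.

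RNF208 was the member highest above X0 in total RNA, at 44.7 RPKM after let-7a against 15.3 RPKM at X0, a log2 difference of 1.51. The value lay outside the 13.5 to 18.5 RPKM spanned by X0 to X4. Its polysome RNA was 40.2 RPKM against 16.8 RPKM, a difference of 1.23, so occupancy differed by -0.28. RNF215, a membrane-anchored member, was the only other with a fold of 2 or more in total RNA, at 7.07 against 2.79 RPKM. For total RNA 2 of 61 members thus differed 2-fold, both upward, where 3.82% of all genes did, 257 upward and 176 downward.

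For polysome RNA 9 members were at least 2-fold higher and 2 at least 2-fold lower. By that much 16.9% of all 11342 genes differed, 1334 higher and 578 lower. After centring the split was 7 up and 4 down, and that of all genes 1000 up and 860 down (16.4% in either direction). The largest difference was that of RNF11, at 36.1 against 7.56 RPKM in polysome RNA (2.19) and 40.7 against 24.9 RPKM in total RNA. RNF213 and RNF169 followed with polysome differences of 1.61 and 1.45. RNF11, RNF169 and RNF213 were the members with the lowest ratios at X0, the libraries that also enter these differences. For occupancy 3 of 61 members were at least 2-fold higher and 0 lower, where 5.11% of all genes differed by that much, 434 higher and 146 lower. The 3 were RNF11 (1.49 on the log2 scale), RNF169 (1.37) and RNF114, whose polysome RNA was 105 against 52.4 RPKM. RNF13 and RNF20 were the lowest in polysome RNA, at 3.63 against 10.6 RPKM and at 6.40 against 16.3 RPKM. Along the LIN28B levels their occupancy slopes were 0.17 and 0.13, and both comparisons share the X0 libraries. The median polysome difference of the members was 0.34, against 0.14 for all genes.

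**Figure D5:**
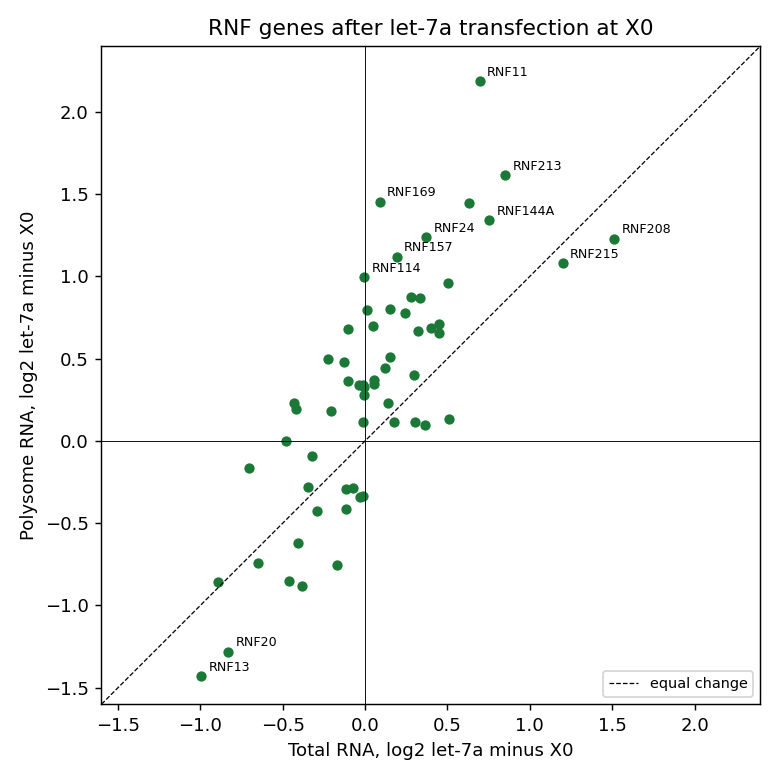
Difference between let-7a transfected and untransfected HEK293A X0 cells in log2(RPKM + 0.5), total RNA (horizontal) against polysome RNA (vertical), for the 61 RNF genes with 1 library per fraction. RNF208 lies farthest right at 1.51, RNF11 highest at 2.19, and RNF13 lowest at -1.43.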

How the data were processed

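HEK293A and NIH3T3 at 5 LIN28B levels each gave polysome and total RNA, as did HEK293A X0 after let-7a transfection (22 libraries). Another 8 libraries of small RNA served for the let-7a check. The authors deposited RPKM values for polysome and total RNA and raw counts for small RNA. The deposited HEK293A table lists only genes with at least 1 RPKM in each total RNA library. Per the submitters' processing notes cutadapt, STAR, hg19 and mm10 were used, with the counting tool, strand setting and annotation each not given in the sources used here. Reads were recovered from the whole-number steps of the RPKM values, within 0.02 of a whole number, for 100.0% of genes with values in both lines and for 99.95% and 99.93% in the let-7a libraries.

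Occupancy was log2(polysome RPKM + 0.5) minus log2(total RPKM + 0.5). With limma 3.58.1 (R 4.3.3) lines against level rank (0 to 4) were fitted for all genes averaging 1 RPKM or more, with Benjamini-Hochberg adjustment over all of them and a two-sided threshold of 0.05. The cell lines were compared by a term for the difference in slope over shared symbols. Alternatives were pseudocounts of 0.1 and 1, no filter, a filter of 5 RPKM, centring on the trimmed mean, quantile normalization, edgeR 4.0.16 on recovered reads, LIN28B RNA as the dose, and each level left out. The method was tested on simulated data.

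Members, lists and pairs were chosen with earlier results of these data known. Genes were named by rule: RNF208, up to 6 rises and 6 falls per slope, up to 4 members per group by lowest p, the 5 nearest to RNF208, and the 5 largest let-7a or line differences. Other members were named after their values were seen. An item of the family is counted but not reported here by name.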

Additional observations from a re-analysis of the deposited data

How the results depend on the processing

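Counts of calls here leave RNF208 out unless stated, since it was chosen from this contrast. No member called in HEK293A changed the sign of its called slope under the alternatives run. For occupancy 13 members, none of them called, did so under at least 1, 10 of them on centring. For RNF208 the total RNA slope was -0.02, and 0.08 without X4. Occupancy calls, 36 with all levels, ranged from 0 to 37 when 1 level was left out, with 8 without X0 and 0 without X4. With RNF208 counted, polysome calls, 36 with all levels, ranged from 0 to 42, with 0 without X0 and 0 without X4. Without RNF208 there were 35 of 60 with all levels, where 58.9% of all genes were called. The 41 without X2 were 20.0% up and 48.3% down, against 24.2% and 42.6% of all genes. Total RNA calls, 0 with all levels, ranged from 0 to 2. The 2 came without X4 (RNF126 and RNF44, 3.33%, against 2.85% of all genes rising). The count test gave 1 (1.67%, against 1.56% of all genes rising). Calls of a slope difference between the lines, 0 with all levels, ranged from 0 to 9 (18.8%, against 13.0% of all genes). At a pseudocount of 1 there were 6 (12.5%, against 8.17%). In NIH3T3 0 members were called for each measure whichever level was left out. The cause of these moves was not tested, beyond the fewer libraries in each such fit. The slope of RNF208 occupancy ran from -0.59 (without X4) to -0.37 (LIN28B RNA as the dose, another unit of slope). Counting error limits members with few reads, of which the fewest were 39 in a HEK293A polysome library and 44 in an NIH3T3 total RNA library. No paired analysis was possible because each level and fraction had 1 library and the replicate numbers only name samples.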
